A study of Mus musculus with 16 samples.

Results

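Transcripts of B cells and plasma cells were followed through 8 genes in the subcutaneous (SAT) and visceral (VAT) adipose tissue of lean and obese mice. The genes were Cd79a, Cd79b, Ms4a1, Pax5, Jchain, Mzb1, Fcrla and Pou2af1, and they were taken as every entry of the deposited count table whose RefSeq identifier belongs to one of these symbols. They make up 8 of the 31419 genes with at least 1 count, and 13 of the 130343 entries of the table. All samples came from wild-type male C57BL/6J mice that were kept on their diets for 12 to 14 months from 10 weeks of age. Of these, 4 had a normal laboratory diet (lean) and 4 a high-fat diet with 42% of its energy from fat and 0.2% cholesterol (obese). The lean mice were matched in age to the obese mice. Each mouse gave 1 library of inguinal SAT, for which the left and right depots were combined, and 1 library of mesenteric VAT, which gave 16 bulk poly(A) RNA-seq libraries in 4 groups of 4. Visible vasculature was removed from the tissue, and lymph nodes, which lie within the inguinal as well as the mesenteric fat of mice, are not mentioned in the study's methods.

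B cells recognize antigen through a surface immunoglobulin whose signal is passed on by the chains encoded by Cd79a and Cd79b. Their identity is held by transcription factors such as Pax5, and when they become plasma cells Pax5 and surface genes such as Ms4a1 are shut down while genes for assembling and exporting antibody, Jchain and Mzb1 among them, are strongly used. Visceral fat is known to hold B cells in small lymphoid clusters close to the mesothelium, the cell layer that covers abdominal organs, and there they are drawn in by the chemokine Cxcl13.

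Total counts ranged from 1256082 (VAT, lean replicate 1) to 16614407 (SAT, obese replicate 3). In the shallowest library 1 count stood for 0.796 CPM (counts scaled to the size of the library, with TMM factors in the levels below), and VAT, obese replicate 1 was also shallow at 2247737 counts. The tissue labels fitted their markers. The summed level of 5 mesothelial genes was between 245.7 and 594.8 CPM in VAT and at most 1.41 CPM in SAT, and 6 adipocyte genes summed to between 7649 and 23331 CPM in the 16 libraries.

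The regulatory windows of these genes are shown where the reference holds them, since several members moved together in VAT. RefSeq promoter sequences (build GRCm38.p6) matched 5 of the 8 members (Cd79a, Pax5, Fcrla, Pou2af1 and Jchain). The 250 bases before the start were searched on both strands for the octamer ATGCAAAT, bound by the Oct factors that the Pou2af1 protein joins, for TGCAAAT within it, and for the centre of the palindrome bound by Ebf1, a factor of early B cells, and its arm GGGAAT. The shorter form TGCAAAT was found in Pou2af1, at 231 to 225 bases before the start, and is held by 3.56% of 32851 windows of this length. GGGAAT was found in Cd79a, at 171 to 166 bases before the start, and is held by 11.4% of the windows. The full octamer (1.60% of windows) and the centre of the Ebf1 palindrome (0.779%) were in none of the 5 members. The windows of Cd79a (chr7:24897247-24897496, plus strand), Pou2af1 (chr9:51213440-51213689, plus strand) and Jchain (chr5:88527898-88528147, minus strand, no match) are printed from 5′ to 3′, with each match in capitals.
Cd79a: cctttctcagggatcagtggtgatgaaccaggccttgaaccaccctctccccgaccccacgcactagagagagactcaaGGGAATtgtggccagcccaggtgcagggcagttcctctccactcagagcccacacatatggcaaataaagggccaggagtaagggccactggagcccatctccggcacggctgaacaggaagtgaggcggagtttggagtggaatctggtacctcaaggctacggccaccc
Pou2af1: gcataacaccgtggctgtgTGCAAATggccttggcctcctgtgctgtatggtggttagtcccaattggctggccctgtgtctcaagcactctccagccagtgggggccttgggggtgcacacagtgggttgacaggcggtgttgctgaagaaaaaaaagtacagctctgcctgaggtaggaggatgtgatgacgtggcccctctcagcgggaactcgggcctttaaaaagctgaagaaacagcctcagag
Jchain: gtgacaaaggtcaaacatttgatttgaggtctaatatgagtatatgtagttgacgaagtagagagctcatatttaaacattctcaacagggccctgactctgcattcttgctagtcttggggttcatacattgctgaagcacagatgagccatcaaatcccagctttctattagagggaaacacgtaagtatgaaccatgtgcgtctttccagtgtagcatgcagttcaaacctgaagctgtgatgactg
These matches are descriptions of letters and were not tied to binding in these tissues.

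**Figure D1:**
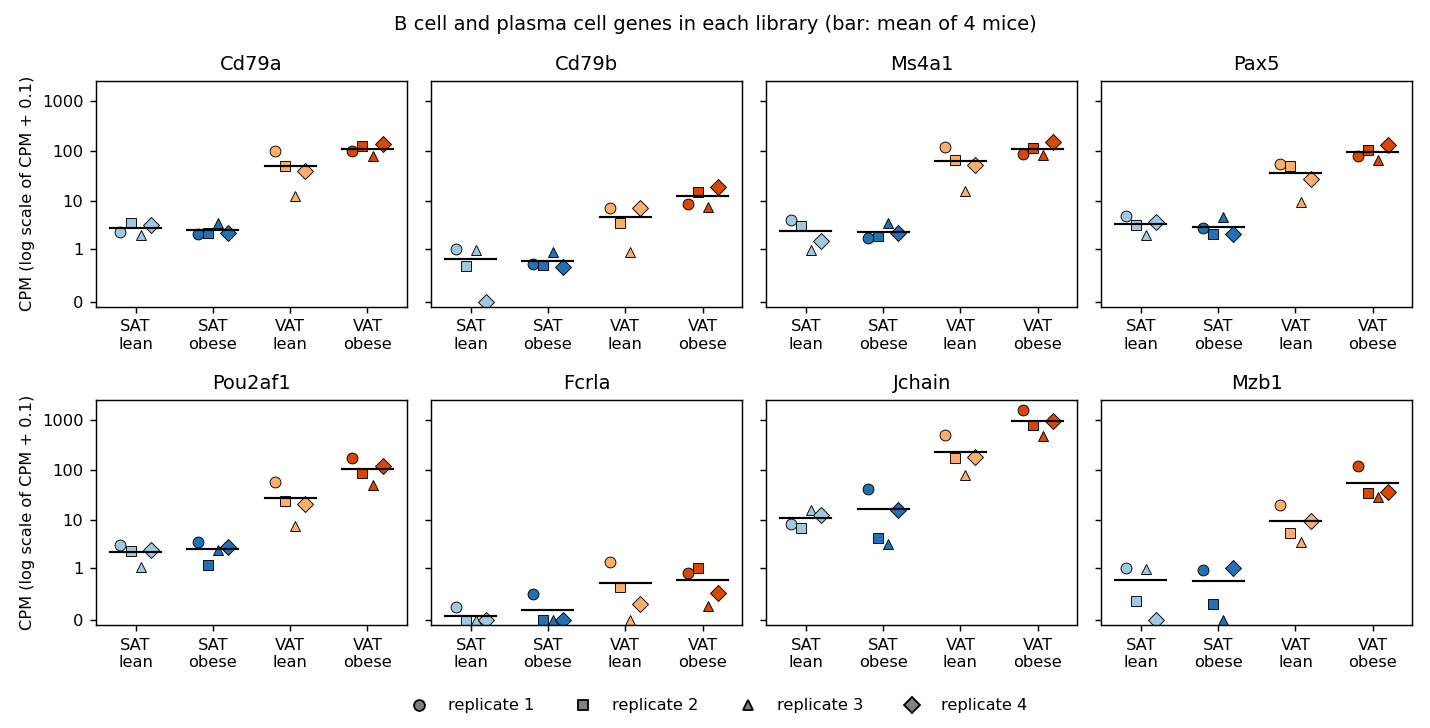
CPM of the 8 members in each of the 16 libraries, on a log scale of CPM + 0.1, with one panel per gene, one marker shape per replicate number and a bar at the mean of the 4 mice of a group. VAT libraries lie above SAT libraries for most members, VAT of lean replicate 3 is the lowest VAT library for each of the 8 genes, and Fcrla stays at or below 1.33 CPM throughout.

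VAT from obese mice held more B cell and plasma cell transcripts than VAT from lean mice. Of the 7 members with enough counts to be tested, 6 rose (edgeR, adjusted p below 0.05), against 6.89% of the 12185 genes tested, and the median log2 fold change of the 7 was 1.63 against -0.016 for all genes. The increases ran from 2.33-fold for Cd79a to 6.66-fold for Mzb1. The B cell surface gene Ms4a1 was the tested member that did not pass. In bulk tissue, more cells of a type and more RNA per cell cannot be told apart.

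Cd79a (chr7:24596740-24601622, GRCm39) encodes a signalling chain of the B cell receptor. Its level was 99.9, 51.0, 12.6 and 40.5 CPM in VAT of lean replicates 1 to 4 and 100.5, 126.2, 78.7 and 136.6 CPM in VAT of obese replicates 1 to 4. Lean replicate 1, the shallowest library, lay above obese replicate 3 and just under obese replicate 1, and lean replicate 3 was far below all others. The log2 fold change was 1.22 (SE 0.35, adjusted p = 0.0224). Its partner chain Cd79b (chr11:106202167-106205588) stood at 7.32, 3.63, 0.861 and 7.13 CPM in VAT from lean mice and at 8.76, 15.4, 7.65 and 19.3 CPM in obese VAT. The groups did not overlap, although the highest lean and the lowest obese library were close, and the log2 fold change was 1.63 (SE 0.44, adjusted p = 0.0178). Cd79b has 2 entries in the table and 1 of them carries all of its counts, so its level is not comparable with that of Cd79a.

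Ms4a1 (chr19:11227039-11243605) encodes CD20, a membrane protein of mature B cells that plasma cells lack. It was measured at 121.9, 65.7, 15.7 and 53.8 CPM in VAT from lean mice and at 89.1, 113.4, 85.2 and 150.1 CPM in obese VAT. Lean replicate 1 lay above 3 of the 4 obese libraries here, which was not so for any other tested member. The log2 fold change of 0.85 (SE 0.37) did not pass (adjusted p = 0.156), and without lean replicate 1 it was 1.28 and passed.

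Pax5 (chr4:44524757-44710487) encodes the factor that keeps B cells committed. Its level was 56.6, 50.9, 9.37 and 28.3 CPM in lean VAT against 80.0, 106.0, 65.3 and 130.8 CPM in obese VAT. No lean library reached an obese one, and the log2 fold change was 1.47 (SE 0.36, adjusted p = 0.00923). Pou2af1 (chr9:51124984-51151380) encodes a B cell coactivator of the Oct factors that is needed for germinal centres, the structures in which B cells mutate and select their receptors. It stood at 56.6, 23.4, 7.43 and 20.6 CPM in VAT from lean mice and at 167.6, 85.4, 49.4 and 118.6 CPM in obese VAT. Only lean replicate 1 and obese replicate 3 crossed, and the log2 fold change was 2.13 (SE 0.41, adjusted p = 0.00153).

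Jchain (chr5:88667668-88675750) encodes the chain that joins IgM and IgA into polymers and is abundant in plasma cells. Its level was 489.4, 168.3, 78.1 and 180.4 CPM in VAT from lean mice and 1571, 771.8, 463.4 and 927.5 CPM in obese VAT. As for Pou2af1, only lean replicate 1 and obese replicate 3 crossed, and the log2 fold change was 2.07 (SE 0.56, adjusted p = 0.0178), or 2.71 without lean replicate 1. Mzb1 encodes a helper of antibody folding in the endoplasmic reticulum of plasma cells and innate-like B cells. It was measured at 19.98, 5.42, 3.45 and 9.33 CPM in VAT from lean mice and at 115.8, 33.7, 28.3 and 35.8 CPM in obese VAT. The groups did not overlap, obese replicate 1 stood far above the other obese libraries, and the log2 fold change was 2.73 (SE 0.53, adjusted p = 0.00150), or 2.09 without that mouse.

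Fcrla (chr1:170745145-170755152), an intracellular relative of the Fc receptors found in B cells, could not be fitted because it passed 1 CPM in fewer than 3 libraries. Its 5 entries held 9 counts in lean VAT and 18 in obese VAT, with means of 0.450 ± 0.607 CPM and 0.518 ± 0.414 CPM (SD, n = 4). An exact two-sided permutation test over the 70 assignments of the 8 VAT libraries gave p = 0.886 for the difference. Counts of a gene with several overlapping entries may be lost when reads fit more than 1 of them, so this low level is not read as low expression.

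In VAT, 4 of the 7 tested members rose by more than 1.5 on the log2 scale (Cd79b, Jchain, Mzb1 and Pou2af1), against 2.25% of all genes, and 3 of the 7 (Cd79b, Pax5 and Mzb1) had no overlap between obese and lean libraries, against 7.98%. The calls depended on the test and on single mice. DESeq2 called 2 of the 7 (Pax5 and Pou2af1), and 4 were called when lean replicate 2, 3 or 4 or obese replicate 2 or 4 was left out. Of all genes, DESeq2 called 923 of 12185 higher, against 839 in the main edgeR fit. Those fits without a mouse called 540 to 720 of 11933 to 12029 genes higher.

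In SAT the members were low, and no difference between the diets was detectable at these counts. None of the 7 tested members was called by edgeR, 0 had an unadjusted p under 0.05 and DESeq2 called 0, against 6.35% of all genes that rose and 5.25% that fell. The log2 fold changes lay between -0.33 (Cd79b, SE 0.69) and 0.58 (Jchain, SE 0.62), with a median of -0.075. Cd79a was at 2.33, 3.65, 2.01 and 3.20 CPM in lean SAT and at 2.13, 2.23, 3.63 and 2.25 CPM in obese SAT, so that the groups overlapped. Ms4a1 ranged from 0.956 to 4.15 CPM in lean and from 1.75 to 3.56 CPM in obese SAT, Pax5 from 2.01 to 4.90 and from 2.12 to 4.86 CPM, and Pou2af1 from 1.05 to 3.07 and from 1.17 to 3.58 CPM. Jchain was uneven in obese SAT, at 41.2, 4.14, 3.22 and 15.8 CPM against 8.31, 6.89, 15.7 and 12.6 CPM in lean SAT. Cd79b and Mzb1 stayed at or near 1 CPM or lower in all 8 SAT libraries, with 25 and 23 counts over the 4 lean libraries, and Fcrla had 1 count in lean and 3 in obese SAT (exact permutation p = 1.0). The standard errors were 0.47 to 0.97 on the log2 scale in SAT, against 0.35 to 0.56 in VAT, so smaller changes could be detected in VAT than in SAT. With no filter on low counts Jchain passed in SAT (log2 fold change 0.63, adjusted p = 0.00399).

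**Figure D2:**
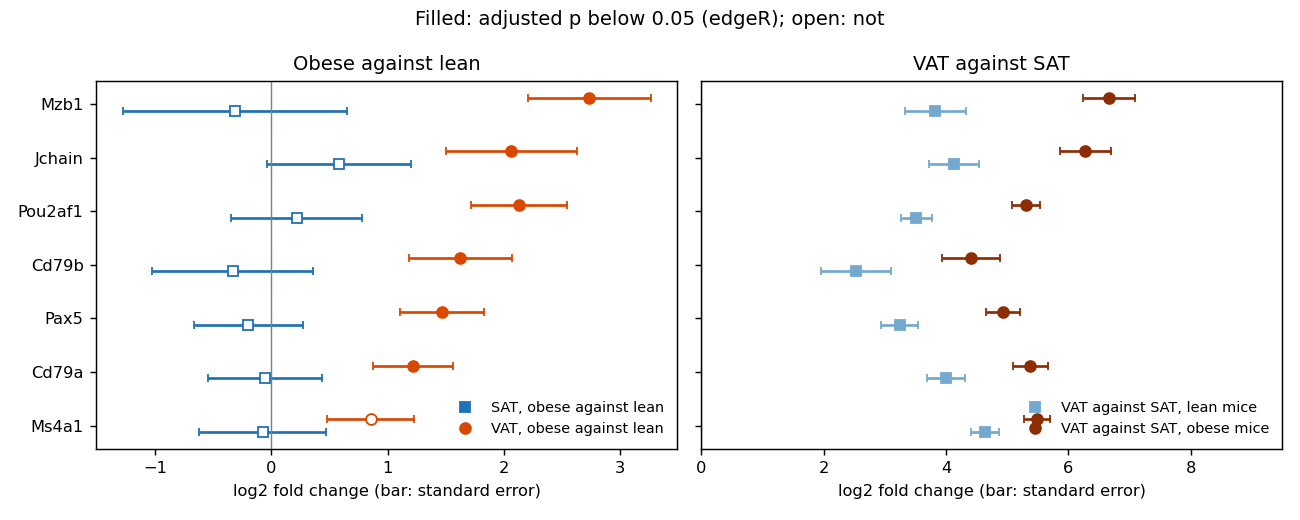
Log2 fold changes of the 7 tested members with their standard errors, obese against lean in SAT and VAT (left) and VAT against SAT in lean and obese mice (right), with filled markers where the adjusted p was below 0.05. In VAT 6 of 7 obese-against-lean values are filled and in SAT none, and every VAT-against-SAT value is filled.

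Every tested member was higher in VAT than in SAT of the same mice. In lean mice 7 of 7 were called higher, against 8.67% of all genes, with log2 differences from 2.53 (Cd79b, SE 0.57) to 4.64 (Ms4a1, SE 0.23) and a median of 3.83. In obese mice 7 of 7 were called, against 16.3% of all genes, with log2 differences from 4.41 (Cd79b, SE 0.48) to 6.66 (Mzb1, SE 0.43) and a median of 5.38. Cd79a was 16.05-fold higher in lean and 41.5-fold higher in obese mice, and Jchain 17.6-fold and 77.7-fold. All 4 mice of a diet showed the direction for each of these genes except Cd79b, which was higher in VAT in 3 of 4 lean mice. VAT and SAT libraries did not overlap for 6 of 7 members in lean mice (9.22% of all genes) and 7 of 7 in obese mice (15.1%). By mean level each tested member had the order obese VAT, lean VAT, then the pair of SAT groups, whose libraries overlapped for every member. Libraries of obese and lean VAT overlapped for Cd79a, Ms4a1, Jchain and Pou2af1, and those of lean VAT and lean SAT for Cd79b. In lean mice the Cd79b difference was 3.48 without replicate 3 and 1.94 without replicate 4, the Mzb1 difference 4.73 without replicate 3, the Cd79a difference 3.41 without replicate 1, and the Jchain difference 3.49 without replicate 1 and 4.83 without replicate 3. In obese mice the Cd79b difference was 5.05 without replicate 3, and the Mzb1 difference was 7.52 without replicate 4, 7.40 with DESeq2 and 7.26 with limma voom.

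Whether the diet response was larger in VAT than in SAT was asked in a fit that held the mouse as a block. Of the 7 members, 3 had a larger increase in VAT, against 0.854% of all genes. The difference on the log2 scale was 1.70 for Pax5 (SE 0.42, adjusted p = 0.0326), 2.15 for Jchain (SE 0.55, adjusted p = 0.0405) and 1.79 for Pou2af1 (SE 0.37, adjusted p = 0.00983). The values of the other members were 0.84 for Ms4a1 (adjusted p = 0.202), 1.37 for Cd79a (0.104), 1.88 for Cd79b (0.259) and 2.84 for Mzb1 (0.0680), and they did not pass. Without the block for the mouse none of the 7 passed, with adjusted p = 0.183 for Pax5, 0.444 for Jchain and 0.201 for Pou2af1. In that fit 40 of 12185 genes were higher, against 104 with the block. None passed with limma voom, where 135 of 12185 genes were higher. With lean replicate 3 or obese replicate 2 left out only Pou2af1 was called (52 of 12029 and 75 of 11952 genes higher). Jchain had a difference of 1.49 without lean replicate 3 and 2.77 without lean replicate 1. Cd79a passed without lean replicate 1 (1.97). With obese replicate 3 left out Cd79a (1.81) and Ms4a1 (1.28) passed. Mzb1 had a difference of 1.95 without lean replicate 3, and it passed without lean replicate 4 (3.19) or obese replicate 4 (3.71). Cd79b, which passed in no alternative, ranged from 0.96 without lean replicate 3 to 2.54 without obese replicate 3, with 2.50 without lean replicate 4.

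The members were also set against Ms4a1 within each VAT library, which needs no scaling between libraries. Ms4a1 was chosen for this after its values were seen, and it had the smallest log2 fold change of the 7 (0.85, adjusted p = 0.156) and its highest lean value in replicate 1, so ratios to it tend to be higher in obese VAT. Counts per Ms4a1 count, a description with no test, were higher in all 4 obese than in all 4 lean VAT libraries for Cd79a, Pou2af1, Jchain and Mzb1, as for 0.402% of all genes. Jchain had 4.02, 2.56, 4.97 and 3.36 counts per Ms4a1 count in lean VAT and 17.6, 6.81, 5.44 and 6.18 in obese VAT. Mzb1 had between 0.0825 and 0.219 in lean and between 0.238 and 1.30 in obese VAT. Obese replicate 1 was the highest for each of these plasma cell genes. For Pou2af1 the ratio was between 0.356 and 0.473 in lean and between 0.581 and 1.88 in obese VAT. For Cd79a, a B cell gene like Ms4a1, it ran from 0.753 to 0.820 in lean and from 0.910 to 1.13 in obese VAT. Pax5 overlapped, with 0.464 to 0.775 in lean and 0.767 to 0.935 in obese VAT, and so did Cd79b, with 0.0548 to 0.133 and 0.0898 to 0.136. The ratios share the Ms4a1 count of their library.

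**Figure D3:**
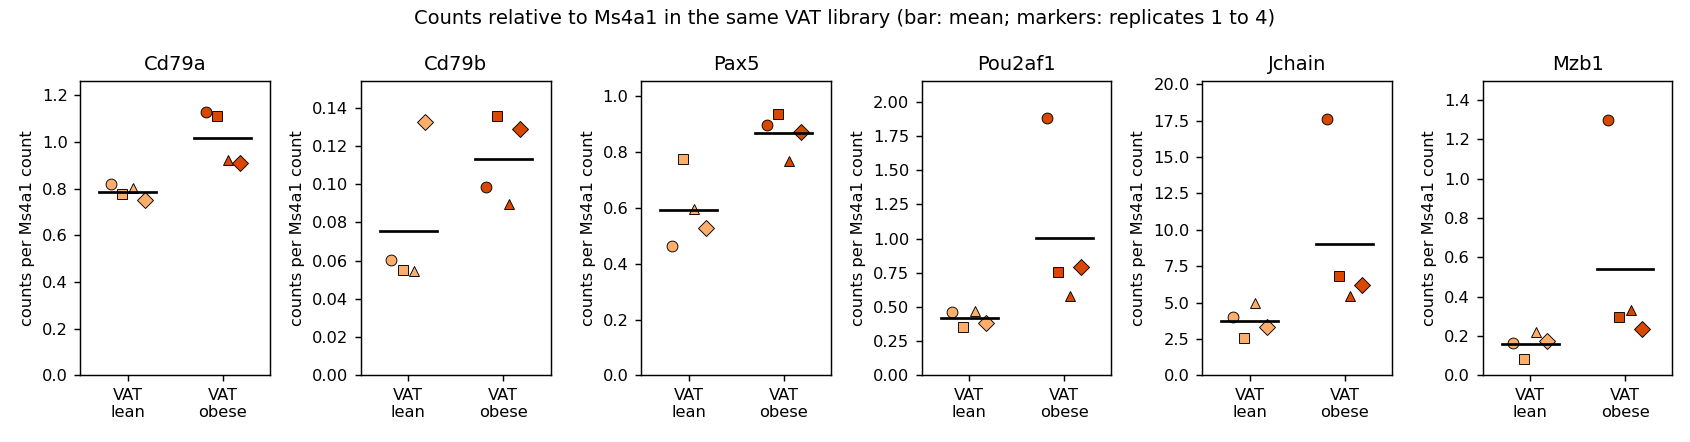
Counts of Cd79a, Cd79b, Pax5, Pou2af1, Jchain and Mzb1 per Ms4a1 count in the 8 VAT libraries, on linear axes from 0, with a bar at the mean and a marker shape per replicate number. The obese libraries lie above the lean ones except for Cd79b and Pax5, whose groups overlap, and obese replicate 1 has 17.6 Jchain counts per Ms4a1 count.

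Across the 16 libraries, after each group's mean was subtracted, the 21 pairs of tested members had correlations of log2 CPM from 0.0942 to 0.893, given as a description since the libraries share depth and composition. Ms4a1 with Pax5 (0.893) and Cd79a with Pax5 (0.886) were high, and the plasma cell genes Jchain and Mzb1 had 0.756. The genes outside the members that were most like the mean profile of Cd79a, Cd79b, Ms4a1, Pax5 and Pou2af1 by this measure were Rasgrp1 (r = 0.925), Gimap1 (0.914), Bcl2a1b (0.911), Fcmr (0.905), Ikzf3 (0.887), AI504432 (0.869), Arhgap30 (0.867) and Zmynd15 (0.866). Those most like Jchain and Mzb1 were Slc10a6 (0.854), Nkg7 (0.853), Rbm45 (0.826), Slc9a2 (0.823), Gm33887 (0.815), Atad1 (0.809), Nagpa (0.808) and an unnamed transcript (0.821).

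Among 28 other B cell genes, 20 could be tested, and in VAT of obese mice 8 rose and 1 fell (6.89% and 5.28% of all genes), with a median log2 fold change of 1.36. Blnk, the adaptor below the B cell receptor, went from a mean of 2.83 to 11.2 CPM (log2 fold change 2.00, adjusted p = 0.000237). H2-Ob, which limits antigen loading in B cells, rose by 1.73 on the log2 scale, Plcg2, a signalling enzyme that other leukocytes also use, by 1.22, and Cd180, shared with macrophages, by 1.64. Cxcr5, the receptor for Cxcl13, rose from 18.9 to 37.9 CPM (1.21, adjusted p = 0.0287), and Siglecg and Cd37 rose by 1.57 and 1.14. Ebf1, which adipocyte precursors also use and which has 14 entries, fell by 1.31. In SAT, where no member was called, 4 of these 20 rose (6.35% of all genes), among them Cd180 (2.33), Cd37 (1.23) and Plcg2 (0.97). Between VAT and SAT of the same mice, 14 of the 20 were higher in VAT in lean mice and 18 in obese mice (8.67% and 16.3% of all genes). The kinase Blk was called in neither tissue (0.97 in VAT, adjusted p = 0.110, and -0.88 in SAT, adjusted p = 0.298), but the difference between these responses passed (1.74, adjusted p = 0.0345), with SAT means of only 2.36 CPM in lean and 1.28 CPM in obese mice.

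Of 21 other plasma cell genes, 12 had counts and 8 could be tested. No entry of the count table mapped to the immunoglobulin constant genes of the list, so they could not be measured here. In VAT of obese mice 4 rose (6.89% of all genes), namely Slamf7 (2.09), Tent5c (0.98), Creld2 (0.89) and Cd38 (0.66), and in SAT Cd38 rose (0.55, with 6.35% of all genes). The other 4 did not pass in VAT. Xbp1, the factor that drives the secretory programme of plasma cells, had a mean of 48.6 CPM in lean and 42.0 CPM in obese VAT (log2 fold change -0.24, adjusted p = 0.458), and the log2 fold changes of Sdc1, Fkbp11 and Txndc5 were 0.79, 0.71 and 1.00 (adjusted p = 0.555, 0.152 and 0.204). Tent5c, which stabilizes antibody mRNA, and Creld2, a stress gene of the endoplasmic reticulum, also passed the test of the difference between tissues (0.93 and 1.02 on the log2 scale, adjusted p = 0.0289 and 0.0311). Each of these 4 genes is also used by other cells. The germinal centre list had 5 testable genes of 8, of which 2 rose in VAT (6.89% of all genes) and none of the 5 was called in SAT. Mybl1, a transcription factor of dividing germinal centre B cells, rose from 0.345 to 1.78 CPM (1.76, adjusted p = 0.0440).

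Of 15 signals that attract or sustain B cells, 10 could be tested and 5 rose in VAT of obese mice, against 6.89% of all genes. These 5 were the chemokines Ccl19 (3.76) and Cxcl12 (0.40), the lymphotoxin subunit Ltb (1.4), Cd40lg (1.51), by which T cells help B cells, and Icosl (0.76). Ccl19 had few counts, with 0, 4, 2 and 2 in lean VAT and 6, 82, 25 and 8 in obese VAT. Cxcl12 also rose in SAT (0.67). Cxcl13, the main B cell chemokine, was not called in either tissue, at 177, 138, 20.9 and 94.1 CPM in VAT from lean mice and 19.4, 142, 67.6 and 156 CPM in obese VAT. Its lowest lean value fell in replicate 3, where the members were lowest too, while its lowest obese value fell in replicate 1, where Jchain, Mzb1 and Pou2af1 were highest.

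**Figure D4:**
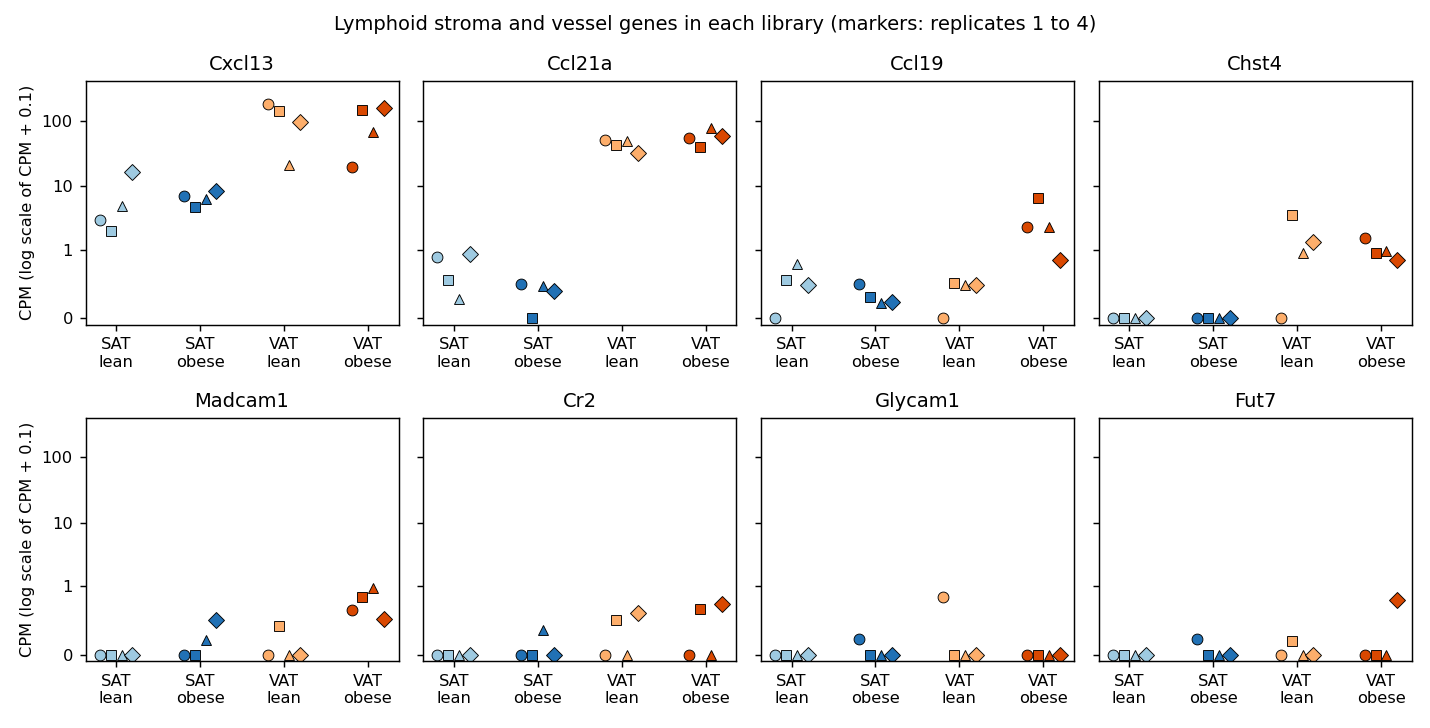
CPM of 8 genes of lymphoid stroma and high endothelial venules in each of the 16 libraries, on a log scale of CPM + 0.1, with one marker shape per replicate number. Cxcl13 and Ccl21a are present in every VAT library of either diet, Ccl19 is higher in obese VAT, and Cr2, Glycam1, Madcam1 and Fut7 stay below 1 CPM.

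Genes of lymph node stroma and of the high endothelial venules by which lymphocytes enter nodes were read beside the members, because nodes lie in mesenteric fat. Of 11 such genes 5 could be tested, and in VAT of obese mice 1 (Ccl19) rose, against 6.89% of all genes. Their summed level was 71.7 to 232.4 CPM in lean VAT and 77.7 to 220.1 CPM in obese VAT, and 2.95 to 17.9 CPM over both SAT groups. In lean mice 4 of the 5, and in obese mice all 5, were higher in VAT than in SAT (8.67% and 16.3% of all genes). Nearly all of the sum came from Cxcl13 and Ccl21a, the latter at 32.0 to 50.6 CPM in lean and 40.1 to 76.3 CPM in obese VAT against at most 0.853 CPM in SAT. Several defining genes of nodes had few counts. Glycam1, of high endothelial venules, had 1 count in all 8 VAT libraries, Fut7 had 1 count in lean and 7 in obese VAT, Madcam1 3 and 22, and Cr2, of follicular dendritic cells and B cells, 7 and 11. Chst4, another gene of these venules, had 61 counts (3.63 CPM) in VAT of lean replicate 2 and at most 1.52 CPM elsewhere. These 5 genes have several entries in the table (Glycam1 and Madcam1 2 each, Chst4 4, Cr2 7 and Fut7 10), among which reads can be lost, so their counts are not read as absence, whereas Cxcl13, Ccl21a and Ccl19 have 1 entry each. The part of lymph node tissue in the VAT results was not tested.

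In VAT other leukocyte genes rose with the members, while in SAT some of them rose and no member did. Of 18 T cell genes 8 could be tested and 6 rose in VAT of obese mice, with a summed level of 28.5 to 59.9 CPM in lean and 75.4 to 137.6 CPM in obese VAT. Among all genes, 6.89% rose in VAT of obese mice and 6.35% in SAT. The general leukocyte genes Ptprc, Coro1a, Laptm5, Cd53, Rac2 and Cd52 summed to 321.1 to 556.0 CPM in lean and 866.6 to 1556 CPM in obese VAT, and 5 of the 5 that could be tested rose. Nearly all of the sum came from Laptm5, Cd53, Rac2 and Cd52. In obese VAT, their highest group, Ptprc had a mean of 0.757 CPM and Coro1a 5.35 CPM. In SAT the same sum was 162.5 to 244.3 CPM in lean and 306.2 to 404.2 CPM in obese mice, where 2 of the 5 rose, and 1 of the 8 T cell genes rose in SAT. Macrophage genes rose in 7 of 9 cases in VAT and 4 in SAT of obese mice, and genes of lipid-associated macrophages in 7 of 7 and 3. Genes of plasmacytoid dendritic cells summed to 37.5 to 47.3 CPM in lean and 60.9 to 67.1 CPM in obese VAT. Most of that sum was Bst2 (means of 41.8 and 61.3 CPM), while Siglech had means of 0.741 and 0.559 CPM. Relative to the counts of the 6 general leukocyte genes in the same library, a scale chosen after the data were seen, none of the 7 members differed between obese and lean VAT by an exact permutation test (smallest possible p = 0.0286), against 0.295% of all genes that were higher and 59.4% that were lower on this scale. The log2 differences by this exact test were 1.11 for Mzb1 (p = 0.2), 0.79 for Jchain (p = 0.2), 0.76 for Pou2af1 (p = 0.229), 0.29 for Cd79b (p = 0.771), 0.23 for Pax5 (p = 0.8), 0.018 for Cd79a (p = 1.0) and -0.35 for Ms4a1 (p = 0.486). In SAT on the same scale Cd79a and Pax5 were lower in obese mice (-0.97 and -1.09, exact permutation p = 0.0286 for each), as were 45.9% of all genes, while 0.542% were higher. Depth varied too, and VAT of lean replicate 1, the shallowest library, had the highest lean value of all 7 members, while VAT of lean replicate 3 had the lowest. The mesothelial sum was also lowest in lean replicate 3, at 245.7 CPM against 472.1 to 594.8 CPM in the other lean VAT libraries. Genes of intestinal epithelium, which borders mesenteric fat, were called lower in VAT of obese mice in 3 of 7 testable cases (Zg16, Slc5a1 and Muc2) and higher in none, against 5.28% of all genes that fell. Their summed level was 21.97, 72.4, 19.1 and 66.1 CPM in lean VAT against 18.8 to 26.3 CPM in obese VAT, so that lean replicates 2 and 4 stood apart and lean replicates 1 and 3 were at the obese level. Of 6 adipocyte genes 4 fell in VAT of obese mice (median log2 fold change -0.64), and their sum was 9351 to 12101 CPM in lean and 7649 to 10067 CPM in obese VAT. Their part in the results was not tested.

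**Figure D5:**
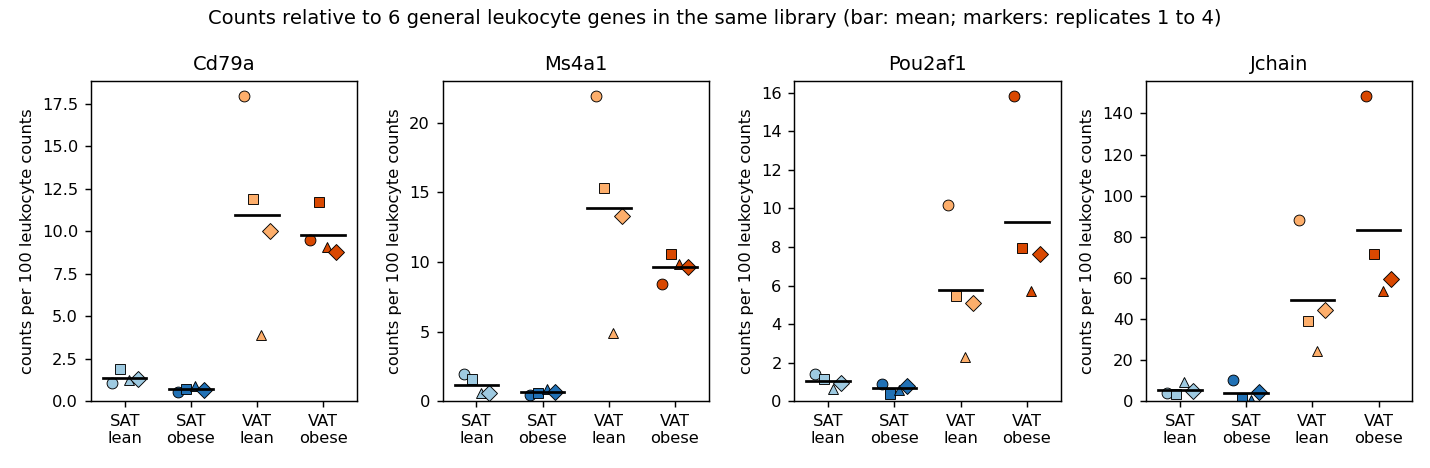
Counts of Cd79a, Ms4a1, Pou2af1 and Jchain per 100 counts of 6 general leukocyte genes in the same library, on linear axes from 0, for the 16 libraries with a bar at each group mean. On this scale lean and obese VAT overlap for each gene, and VAT stays above SAT.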

How the data were processed

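RNA-seq of 8 SAT and 8 VAT libraries was used. The authors trimmed paired-end reads with Trim Galore, aligned them to GRCm39 (RefSeq annotation) with HISAT2 2.2.0, counted RefSeq transcripts with HTSeq 0.13.5, and deposited counts with CPM values beside them that are scaled to each library's total. The strand setting and the treatment of reads that fit several transcripts are not given in the sources used here. The deposited CPM were only checked against the counts.

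Counts were summed per gene symbol, since 106834 entries (98.9% of counts) have one, and 12185 genes with CPM above 1 in at least 3 of 16 libraries were tested with edgeR 4.0.16 (TMM, quasi-likelihood F-test, legacy=TRUE) in R 4.3.3. P-values were adjusted by the Benjamini-Hochberg method over all tested genes and called below 0.05. Diets were compared with a model of 4 groups, and tissues and their difference with the mouse as a block. Each mouse gave both tissues, by the study's design. The deviations from group means had correlations of -0.0014 to 0.175 (median 0.0765) in 8 pairs of 1 mouse. In 24 pairs of different mice they ran from -0.155 to 0.117 (median -0.0373), so the ranges overlapped. Lean and obese libraries of 1 tissue that share only a number had a median of 0.0675 in 8 pairs. These correlations therefore do not separate the mouse from the replicate number. Levels are TMM-scaled CPM.

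Members and gene lists were chosen with earlier results of these data known. All 8 members are named, and of each list the genes called in a diet comparison or in its difference between tissues (up to 8), with the 8 genes most correlated with each profile. Some genes under this rule are not reported here. Xbp1, Sdc1, Fkbp11 and Txndc5, which were not called, and Cxcl13, Ccl21a, Cr2, Glycam1, Madcam1, Chst4 and Fut7 (node markers) were named after their values were seen. On simulated data with 200 changed genes, 94% (VAT), 93% (SAT), 90% and 93.5% (tissues) and 72% (difference) were recovered. Recovery at the spread and fold changes of the members was not tested. Alternatives were RLE factors, other filters, DESeq2 1.42.0, legacy=FALSE, limma 3.58.1 voom, single entries, 1 tissue alone, the replicate number as a block, no block, and each mouse left out, with the leukocyte scale added later.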

Additional observations from a re-analysis of the deposited data

Results flagged for a closer look

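Among 32 sets of 4 libraries (8 members in 4 groups), 5 had a library far from the other 3, where chance gives about 1 in 20. That rate does not apply to 2 of the 5, the SAT groups of Fcrla, in which 3 libraries were at 0 and any count stands apart. Mzb1 stood at 115.8 CPM in VAT of obese replicate 1, against 28.3 to 35.8 CPM in the other obese VAT libraries, and this library was also highest in Jchain and Pou2af1 and had 2247737 counts. In SAT of obese replicate 3, Cd79a stood at 3.63 CPM and Cd79b at 0.890 CPM. Fcrla had its only SAT counts in replicate 1 of each diet, at 0.083 CPM in lean and 0.229 CPM in obese mice, which are 1 and 3 counts.

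The diet response differed between VAT and SAT for Pax5 (log2 difference 1.70), Jchain (2.15) and Pou2af1 (1.79), by the edgeR test with the mouse as a block. None of the 3 passed without the block (adjusted p = 0.183 for Pax5, 0.444 for Jchain and 0.201 for Pou2af1) or with limma voom (0.146, 0.112 and 0.160).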

How the results depend on the processing

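All 7 tested members were higher in VAT than in SAT in every alternative run, and 7 were called in each except Cd79b in lean mice under limma voom (6 called, adjusted p = 0.0601). In VAT of obese mice DESeq2 called 2 members (923 of 12185 genes higher), and leaving out a mouse 4 to 7 (540 to 909 genes higher). Each of the other fits called 5 to 7. On the leukocyte scale 0 members had an unadjusted exact permutation p below 0.05, against 0.295% of all genes that were higher and 59.4% that were lower. The replicate block by number is not a pairing by design. Lean and obese mice share only a number (correlations of -0.0929 to 0.172, median 0.0675, in 8 pairs). With it 6 were called in VAT (882 of 12185 genes higher) and 0 in SAT (886 genes higher and 710 lower). In SAT 1 member (Jchain, adjusted p = 0.00399) was called with no filter (938 of 31419 genes higher) and 0 with any mouse left out. On the leukocyte scale 2 members were lower in SAT by an unadjusted exact permutation test (p = 0.0286 for each), as were 45.9% of all genes. For the difference between tissues 5 were called with no filter (117 of 31419 genes higher), 1 with legacy=FALSE (118 of 12185) and 0 with voom (135 of 12185). With no block for the mouse 0 were called (40 of 12185 genes higher), and with a mouse left out 1 to 4 (46 to 128 genes higher). The cause was not tested. Directions turned for Ms4a1 in VAT on the leukocyte scale (-0.35) and for some members in SAT, where none had been called: with the replicate block Cd79a was 0.014, Ms4a1 0.070 and Jchain -0.0017; with voom Ms4a1 was 0.11 and Jchain -0.046; on the leukocyte scale Jchain was -0.94 and Pou2af1 -0.68. With a mouse left out, SAT values ran from -0.29 to 0.096 (Cd79a), -0.39 to 0.43 (Ms4a1), -0.55 to 0.087 (Pax5), -0.50 to 0.93 (Jchain), -0.87 to 0.15 (Mzb1) and -0.052 to 0.53 (Pou2af1). Counts of Fcrla, Cd79b and Mzb1 were 0 to 13 in each SAT library, and few counts give imprecise values.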
